A study of Mus musculus with 8 samples.

Results

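The exocytosis machinery of insulin granules was examined as 33 genes, taken from a list of gene symbols that set apart SNAREs, SNARE recycling, synaptotagmins, RAB GTPases and priming factors, with complexins and RAB effectors counted among the last. All 33 symbols were found among the 44343 rows of the table, and each was found once. RNA was sequenced from beta cells of MipCreER; R26R-EYFP mice that were Adar floxed/floxed (KO, 4 libraries) or Adar floxed/+ (Het, 4 libraries). MipCreER is a Cre recombinase driven by an insulin promoter that tamoxifen activates, R26R-EYFP labels recombined cells with a yellow fluorescent protein, and Adar encodes the enzyme that converts adenosine to inosine in double-stranded RNA. Both groups carried these alleles and received 2 tamoxifen doses of 8 mg at 1 month of age, and YFP-positive islet cells were collected by FACS after another 7 days. The design text asks what underlies the islet inflammation and diabetes that follow Adar loss. How many mice made a library is not in the labels, so p-values measure the spread between these libraries, which may in part be technical. In sorted bulk RNA, fewer cells of a type and less RNA per cell cannot be told apart.

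Insulin is stored in dense-core granules that move to the plasma membrane, dock there, are primed, and fuse when calcium enters the cell. RAB3 and RAB27 proteins and their effectors bring granules to the membrane, UNC13, RIM and CAPS proteins prime them, and fusion is driven by SNARE proteins of the granule (VAMPs) pairing with those of the membrane (syntaxins and SNAP25 family proteins). Synaptotagmins and DOC2 proteins sense calcium, complexins hold or clamp the assembled SNAREs, and the ATPase NSF with its SNAP adaptors takes spent SNARE complexes apart for another round.

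The table holds normalized counts, which are reads of a gene divided by 1 size factor per library. Whole reads were recovered from it, 5.37 to 15.9 M per library. Under this scaling the libraries stood apart: the median level of expressed genes, on the log2 scale, was -0.25, 0.00, 0.22 and -0.46 in Het 1 to 4, and in KO 1 to 4 it was 0.88, 0.96, -0.77 and -0.56. Reads of olfactory and vomeronasal receptor genes, large families of chemosensory receptors, ran the other way, from 0.0353% and 0.0498% of reads in KO 2 and KO 1 to 0.294% and 0.327% in KO 4 and KO 3, with 0.0868% to 0.244% in Het. Mitochondrial reads made up 17.4% of KO 3 and 6.90% to 10.4% of the other libraries. Het 1 held reads of the male sex only and KO 3 and KO 4 of the female sex only, while the other 5 held both. Normalized Adar counts were 744 to 1187 in Het and 615 to 4030 in KO; which exons the floxed alleles lose is not given in the sources used here, so a count over the whole gene does not check the genotype. The 8 beta cell markers were detected in all libraries, with Ins2 at 389199 to 799944 in Het and 125891 to 835219 in KO. Among markers of other islet cells, alpha cell markers summed to 530 to 787 in Het and 721 to 1397 in KO, led by Gcg, and delta cell markers to 375 to 678 and 527 to 756. Their part in the results was not tested.

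Because of these offsets each member is given on 2 scales. The deposited scale uses the values as they stand. The expressed-gene scale divides them by TMM factors (trimmed mean of M-values, a factor that centres the fold changes of most genes on 0) taken from the 6697 genes with a mean of at least 200. A member was called when limma's Benjamini-Hochberg adjusted p, computed over all genes tested, was under 0.05. Fold changes are log2 differences of KO against Het of (value + 1), with the standard error (SE), over 4 libraries a group.

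The 33 members together summed to 0.384%, 0.410%, 0.412% and 0.415% of the normalized total in Het 1 to 4 and to 0.384%, 0.423%, 0.311% and 0.383% in KO 1 to 4. The KO range holds the whole Het range, and KO 3 was the one library below all others. On the deposited scale all 33 members passed the filter of a mean of at least 10, and 0 were called higher and 0 lower, where the background over 21498 genes was 0.921% higher and 0.0233% lower. Without adjustment, p was under 0.05 for 1 higher and 0 lower members in that limma fit. The share of all genes under that p was not counted, so no result is read from this count. After adjustment, edgeR and DESeq2 on the recovered reads also called 0 members. The median log2 fold change of the members was 0.17, from -0.83 to 1.16, beside 0.05 over all genes.

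On the expressed-gene scale 2 members were called. Napb, an adaptor of NSF, was called higher, and Rab3d, a granule RAB GTPase, was called lower. These were 1 higher and 1 lower of the 29 members with a mean of at least 200, where the background was 6.03% of genes higher and 4.24% lower. The other 4 members (Stx1a, Cplx1, Doc2b and Rab3c) were below that mean. The median over the 29 was -0.06, beside -0.00 over all genes tested. The same 2 members, and no other of the 29, were called by edgeR on these genes, with a background of 6.15% higher and 3.54% lower. Napb passed the filter of 200 only through its KO libraries, with deposited means of 163 in Het and 424 in KO. Its calls by limma and edgeR at that filter therefore rest on a choice of genes that the group difference itself affected. Cadps2 (181 and 254) and Vamp8 (199.9 and 311) passed in the same way and were not called. When the factors were applied to all genes with a mean of at least 10, so that 33 of 33 members were tested, the same 2 were called, with a background of 1.14% higher and 0.395% lower; the median over all genes was then -0.18. Quantile scaling of all 21498 genes also called these 2, with a background of 1.49% higher and 0.642% lower.

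KO libraries spread more than Het libraries, for the members as for other genes. On the expressed-gene scale the median coefficient of variation of the 29 members was 9.22% in Het and 18.7% in KO, and it was larger in KO for 26 of them (89.7%); over all 6697 genes the medians were 8.78% and 17.4%, with 83.4% larger in KO. Snap23, Vamp2 and Syt11 were the 3 members with the smaller spread in KO.

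**Figure D1:**
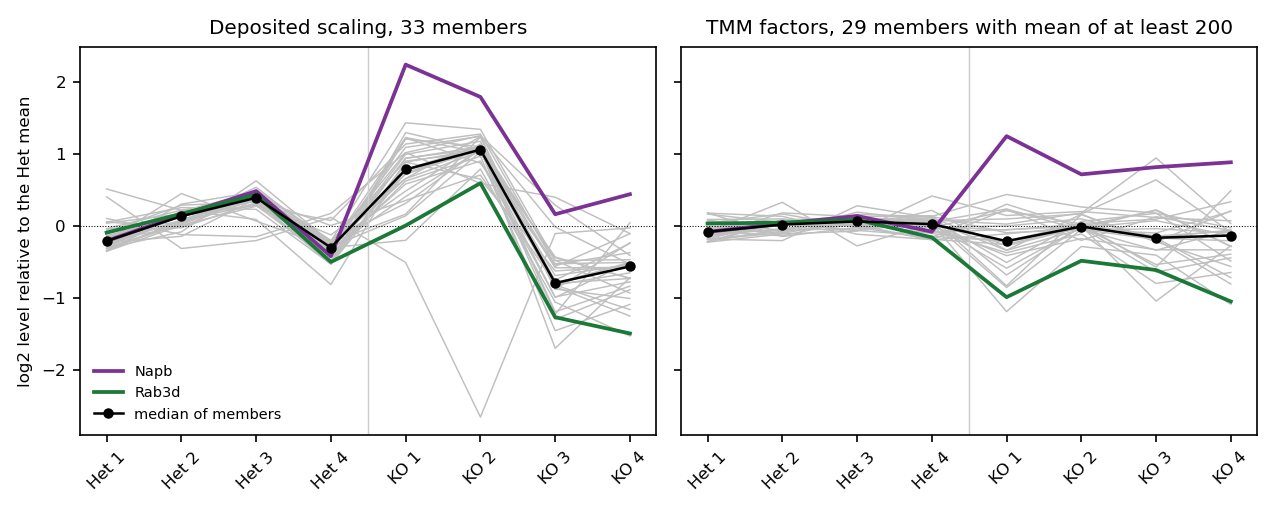
log2 level of each member relative to its Het mean (y axis) in the 8 libraries (x axis), on the deposited scale for 33 members (left) and on the expressed-gene scale for 29 (right); grey lines are members, black points their median. On the left the median runs from -0.80 in KO 3 to 1.06 in KO 2; on the right it stays between -0.21 and 0.06, with Napb above and Rab3d below it in all 4 KO libraries.

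Per kilobase of exon, the levels of the members in Het libraries ran from 1402 down to 5.57. Syt13, a synaptotagmin that does not bind calcium, was first at 1402 ± 316 normalized counts per kb (SD, n = 4), followed by Sytl4 (granuphilin, which docks granules) at 622 ± 206, Rab27a at 590 ± 135, Cplx2 at 560 ± 127 and Syt4 at 443 ± 120. The lowest were Cadps2 at 18.9, Doc2b at 15.8, Cplx1 at 13.9 and Rab3c at 5.57. Along this order the Het ranges of neighbours overlapped in 29 of 32 pairs. These ranges are on the deposited scale and include its offsets between libraries, so an overlap does not show that the order changed within a library. For example, Syt7 and Snap25 overlapped, yet Syt7 was higher in Het 4 (204 against 157) and in Het 3 (372 against 269), the lowest and highest libraries for each gene. Neighbours were not compared library by library. The 3 steps without overlap lay between Syt13 and Sytl4, between Syt14 (70.9) and Syt11 (44.0), and between Cplx1 and Rab3c. Families were ranked by level per kb in Het among the members only. Vamp2 led the VAMPs (295), Snap25 the SNAP25 family (200) and Stx3 the syntaxins that are members (112). Napa led the NSF adaptors (341), Rab3d the RAB3 proteins (378) and Cplx2 the complexins. Syntaxins outside the members were not ranked, and Stx12, which is one of them, lay above Stx3. Stx12 had deposited counts of 752, 741, 987 and 572 in Het over 3.188 kb of exon. Stx3 had 605, 723, 795 and 429 over 5.711 kb.

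**Figure D2:**
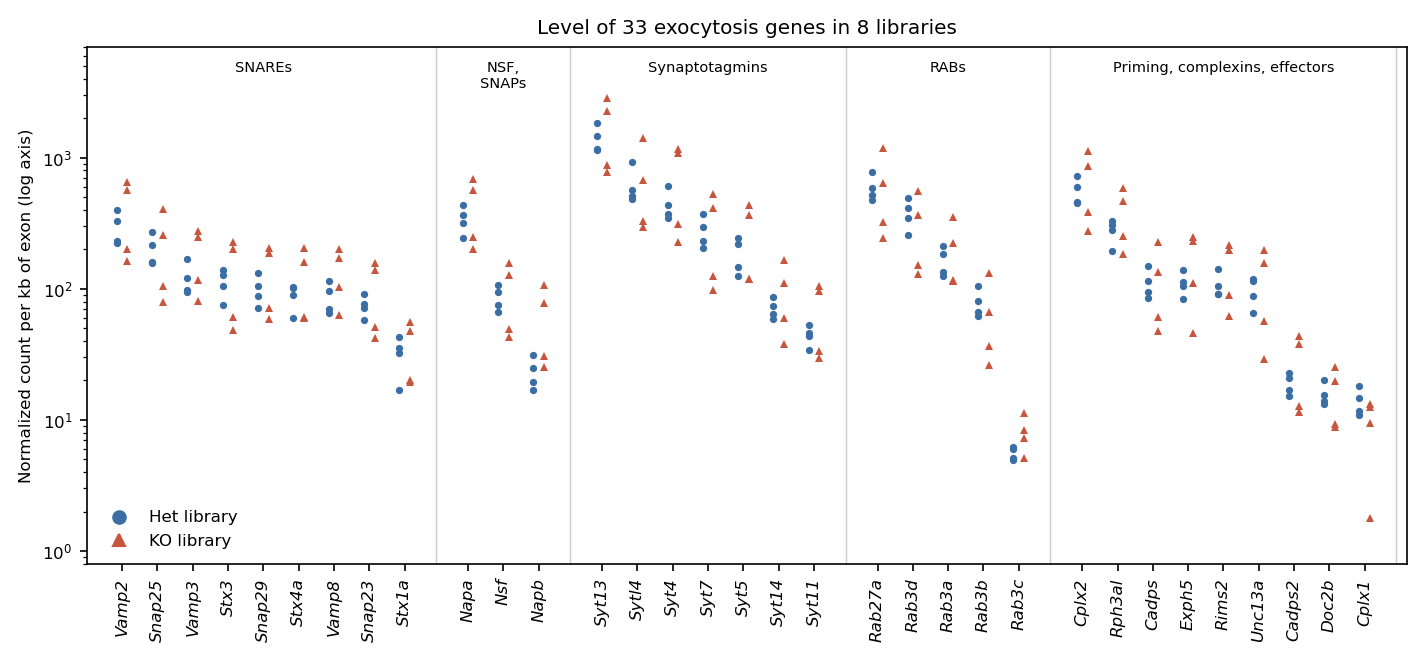
Normalized count per kb of exon on a log axis (y) for the 33 members grouped by role (x), with 1 point per library (circles Het, triangles KO). Syt13 is highest and Rab3c lowest in Het; the lowest single point is Cplx1 in KO 2.

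The SNAREs, which carry out fusion, held 9 members and 0 calls in either direction on both scales (8 tested on the expressed-gene scale). Their fold changes ran from -0.18 to 0.54 on the deposited scale (median 0.21) and from -0.42 to 0.29 on the expressed-gene scale (median -0.03). Vamp2, the granule SNARE of regulated secretion, had deposited counts of 880, 1256, 1513 and 851 in Het 1 to 4 and 2174, 2467, 618 and 770 in KO 1 to 4. KO 1 and KO 2 lay above every Het library and KO 3 and KO 4 below. After the second scaling the same libraries gave 1046 to 1294 in Het and 1059 to 1271 in KO, and the fold change was -0.03 ± 0.12 (adjusted p = 0.870).

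Snap25, the plasma membrane partner of VAMP2, had deposited counts of 1090, 1463, 1828 and 1065 in Het and 1759.5, 2758, 539 and 717 in KO. The expressed-gene values were 1296, 1462, 1564 and 1468 in Het and 960, 1421, 925 and 1061 in KO. KO 2 alone reached the Het range there, and the fold change of -0.42 ± 0.15 did not pass (adjusted p = 0.088) with all libraries; without KO 2 it was -0.55 ± 0.12 and passed (adjusted p = 0.016). Its ubiquitous relatives Snap23 and Snap29, which serve constitutive and endosomal fusion, had fold changes of -0.06 and -0.03 on that scale.

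Vamp3 and Vamp8, SNAREs of recycling endosomes and of late endosomes and secretory granules, had the highest fold changes among the SNAREs, and neither was called. Vamp3 had deposited counts of 273, 350, 492 and 281 in Het and 722, 804, 335 and 234 in KO, a change of 0.45 ± 0.51 (adjusted p = 0.948). Vamp8 had 152, 221, 263 and 163 in Het and 395, 466, 238 and 146 in KO, a change of 0.54 ± 0.48 (adjusted p = 0.920). The groups overlapped for both genes. Vamp8 on the expressed-gene scale was 181 to 225 in Het and 216, 240, 409 and 217 in KO 1 to 4, so the high value was that of KO 3, the library with the largest mitochondrial share. Of the syntaxins, the membrane partners of SNAP25, Stx3 changed by -0.25 ± 0.16 and Stx4a by 0.02 ± 0.15 on that scale, and Stx1a, the syntaxin of the neuronal fusion complex, was low at 45.4 to 115 deposited counts in Het and 51.8 to 150 in KO.

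The recycling proteins held 3 members. Napb encodes beta-SNAP, an NSF adaptor known mainly from neurons, and Napa encodes alpha-SNAP, its ubiquitous relative. Napb (ENSMUSG00000027438, chr2:148693985-148732467, minus strand, mm10) had deposited counts of 137, 176, 222 and 118 in Het 1 to 4 and 753, 551, 178 and 216 in KO 1 to 4. KO 1 and KO 2 were far above Het, and KO 3 and KO 4 lay within its upper part. The deposited fold change was 1.16 ± 0.48 (adjusted p = 0.488), the largest of the 33. Its expressed-gene values were 163, 176, 190 and 163 in Het and 411, 284, 305 and 319 in KO, so that every KO library was above every Het library. The fold change was 0.91 ± 0.14 (adjusted p = 0.005). Its Het mean of 173 was under the filter, which it passed through the KO libraries; with all genes of a mean of at least 10 the adjusted p was 0.010.

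With the same factors and the filter of a mean of at least 10, which Het and KO libraries both pass for Napb, it was called when any 1 of the 8 libraries was left out (limma's adjusted p of 0.004 to 0.049). The comparison of KO 1 and KO 2 alone against Het was run with the filter of 200, which Napb passed through the KO libraries. Napb was called there (0.98, limma's adjusted p = 0.039), as 1 higher beside 1 lower member, with backgrounds of 2.06% and 1.38%. With KO 3 and KO 4 alone the mean of Napb fell under the filter of 200. With the filter of 10 that comparison gave 0.90 ± 0.18 (adjusted p = 0.009) beside a median over all genes of 0.44, and called 1 member higher and 2 lower (Syt7 and Rab3d), with backgrounds of 3.09% and 1.50%. On the deposited scale it gave 0.30 for Napb (adjusted p = 0.595). Markers of neurons were low in both groups: Nefl, Stmn2 and Elavl3 had 9.06 to 30.7 deposited counts in the 8 libraries. Their part in the Napb result was not tested.

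Napa (chr7:16098458-16117975, plus strand) had deposited counts of 1212, 1381, 1650 and 927 in Het and 2158, 2604, 936 and 762 in KO. Its expressed-gene values were 1278 to 1440 in Het and 1128 to 1606 in KO, a change of -0.08 ± 0.14. Nsf, the ATPase itself, had deposited counts of 626, 794, 895 and 556 in Het and 1055, 1316, 355 and 411 in KO. Relative to expressed genes it was the member that varied least among Het libraries, at 744, 794, 765 and 766, and every KO library was lower, at 576, 678, 609 and 608. The change of -0.31 ± 0.10 did not pass (adjusted p = 0.064).

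The 3 stretches just upstream of Napb, Napa and Rab3d are shown because Napb and Rab3d were the members called and Napa is the closest relative of Napb. They come from RefSeq (GRCm38.p6), 5′ to 3′ on the strand of the gene, and end before the first base of the gene in both RefSeq and GENCODE. Capitals mark matches to the GC box GGGCGG (or its complement CCGCCC) and to the E-box CACGTG.
Napb, chr2:148732468-148732670, minus strand: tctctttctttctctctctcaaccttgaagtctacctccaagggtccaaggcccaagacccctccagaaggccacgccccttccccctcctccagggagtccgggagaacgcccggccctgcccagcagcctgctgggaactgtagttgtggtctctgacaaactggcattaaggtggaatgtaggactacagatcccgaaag
Napa, chr7:16098330-16098457, plus strand: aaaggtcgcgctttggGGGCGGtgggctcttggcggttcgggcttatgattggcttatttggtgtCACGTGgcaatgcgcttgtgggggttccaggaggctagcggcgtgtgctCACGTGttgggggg
Rab3d, chr9:21918193-21918433, minus strand: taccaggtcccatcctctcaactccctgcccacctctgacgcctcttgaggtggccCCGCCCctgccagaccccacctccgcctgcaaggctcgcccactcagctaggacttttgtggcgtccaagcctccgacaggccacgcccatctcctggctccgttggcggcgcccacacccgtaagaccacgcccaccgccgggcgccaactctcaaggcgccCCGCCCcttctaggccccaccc
The 203 bases of Napb held neither motif, the 128 bases of Napa held 1 GC box and 2 E-boxes, and the 241 bases of Rab3d held 2 GC boxes. RefSeq windows of 250 bases before to 50 after the start were matched for 24 of the 33 members, with 26 windows; Snap25, Vamp2, Vamp3, Syt4, Syt5, Syt7, Syt13, Rims2 and Doc2b had none. On both strands the GC box was in 57.7% of the member windows and in 35.7% of all 32851 windows of that length, and the E-box in 19.2% and 7.15%. The cAMP response element TGACGTCA was found in 1 member window (Napa), against 1.79% of all, the interferon response repeat (GAAA, any 2 bases, GAAA) in 1 (Unc13a), against 3.44%, and the RE1 part TTCAGCACC in 1 (Unc13a), against 0.371%. The median GC content was 60.8% in the member windows and 52.7% in all, and matches are given as letters only.

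The synaptotagmins and granuphilin held 7 members and 0 calls in either direction on both scales. Their changes ran from -0.24 to 0.37 on the deposited scale and from -0.48 to 0.13 on the expressed-gene scale. Syt13 had deposited counts of 4330, 5483, 6872 and 4413 in Het and 8516, 10785, 2923 and 3295 in KO. After the second scaling it was 5146 to 6084 in Het and 4646 to 5556 in KO, with overlapping groups and a change of -0.17 ± 0.15. Its share of the members' summed level was 14.8% to 16.2% in Het and 15.2% to 15.9% in KO.

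Syt7, a calcium sensor of slow and sustained insulin release, had deposited counts of 1744, 2234, 2783 and 1529 in Het and 3104, 3944, 735 and 946 in KO. Relative to expressed genes it was at 2072, 2234, 2381 and 2108 in Het and 1694, 2031, 1260 and 1401 in KO. All 4 KO libraries were below Het, KO 3 and KO 4 furthest, and the change of -0.48 ± 0.16 did not pass (adjusted p = 0.075). With KO 3 and KO 4 alone Syt7 was called lower together with Rab3d, 2 of the 25 members tested, and 0 higher, with backgrounds of 5.37% lower and 5.42% higher.

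Sytl4, whose gene lies on the X chromosome, had deposited counts of 2479, 2902, 4745 and 2622 in Het and 3442, 7236, 1673 and 1528 in KO. It was variable in both groups on the expressed-gene scale, at 2901 to 4059 in Het and 1878, 3728, 2869 and 2262 in KO, a change of -0.37 ± 0.22. Syt5, a granule calcium sensor, changed by 0.05 ± 0.13 on that scale, from deposited counts of 350, 520, 585 and 297 in Het to 1036, 875, 281 and 282 in KO. Syt11, which lacks calcium binding, had 177, 228, 273 and 238 in Het and 498, 549, 156 and 174 in KO, and its change was 0.13 ± 0.15. Syt4, another member that binds calcium weakly or not at all, changed by 0.10 ± 0.20 and Syt14 by -0.05 ± 0.15.

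The RAB GTPases, which mark granules and recruit their effectors, held 5 members, with 0 calls on the deposited scale and 1 lower on the expressed-gene scale. All 4 tested there had negative changes, with a median of -0.61. With the same factors and the filter of 10, which adds Rab3c (0.23), the median of the 5 was -0.48. Rab3d (ENSMUSG00000019066, chr9:21907491-21918192, minus strand) had deposited counts of 1445, 1733, 2082 and 1090 in Het and 1548, 2328, 640 and 547 in KO. The groups overlapped on that scale, and the change was -0.54 ± 0.58 (adjusted p = 0.946). The expressed-gene values of Rab3d were 1717, 1732, 1781 and 1502 in Het and 845, 1199, 1097 and 810 in KO, so that every KO library was below every Het library. The change was -0.79 ± 0.15 (adjusted p = 0.014), and 0.026 with all genes of a mean of at least 10.

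Rab3d was called on the expressed-gene scale with either pair of KO libraries, with KO 1 and KO 2 alone (-0.74, adjusted p = 0.039) and with KO 3 and KO 4 alone (-0.78, adjusted p = 0.026). It was lost when Het 1, Het 2 or KO 1 was left out, at adjusted p of 0.0503, 0.0502 and 0.0533, with changes of -0.78, -0.78 and -0.70, and with the filter of 10 it was lost without Het 3 or KO 4 as well (0.087 and 0.061). On the deposited scale the direction depended on the pair, since KO 1 and KO 2 alone gave 0.30.

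Rab3b, a close relative, had deposited counts of 233, 369, 283 and 219 in Het and 235, 467, 129 and 92.9 in KO. Relative to expressed genes it was 277, 369, 242 and 302 in Het and 128, 241, 221 and 138 in KO, each KO library just or far below Het. Its change of -0.74 ± 0.22 did not pass (adjusted p = 0.056). Rab27a, which works with granuphilin in docking, had deposited counts of 2020, 2270, 3025 and 1834 in Het and 2472, 4582, 1250 and 942 in KO. On the expressed-gene scale KO 1 and KO 4, at 1349 and 1395, were far below the Het range of 2270 to 2588, and KO 2 and KO 3, at 2360 and 2143, were in or near it. The change was -0.48 ± 0.19 (adjusted p = 0.124).

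Rab3a, the main RAB3 of neurons, had deposited counts of 281, 414, 469 and 301 in Het and 500, 788, 256 and 258 in KO. Its groups overlapped on both scales, and its change on the expressed-gene scale was -0.08 ± 0.15. Rab3c was the lowest member by level per kb, at 71.7, 61.3, 60.0 and 75.3 deposited counts in Het and 136, 101, 88.2 and 61.9 in KO, a change of 0.47 ± 0.41 (adjusted p = 0.918). KO 4 was within the Het range and the other KO libraries above it.

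**Figure D3:**
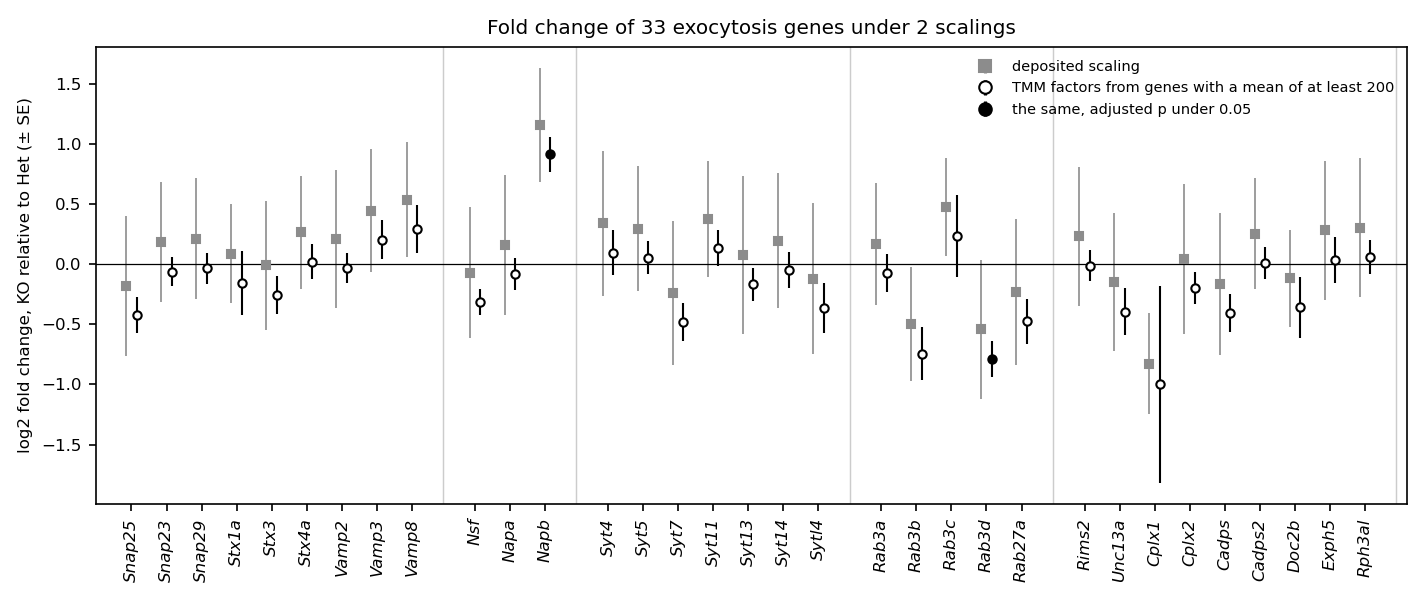
log2 fold change of KO relative to Het with its SE (y axis) for the 33 members by role (x axis), on the deposited scale (grey squares) and with the expressed-gene factors applied to all genes with a mean of at least 10 (circles, filled where the adjusted p is under 0.05). The SE is smaller with the second scaling for each member other than Cplx1, and Napb (0.91) and Rab3d (-0.79) are the 2 filled points.

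The priming factors, complexins and RAB effectors held 9 members and 0 calls in either direction on both scales (7 tested on the expressed-gene scale), with changes from -0.83 to 0.30 on the deposited scale and from -0.41 to 0.06 on the other. Cplx2, the main complexin here, had deposited counts of 2282, 2973, 3552 and 2242 in Het and 4267, 5542, 1360 and 1906 in KO. Its groups overlapped on the expressed-gene scale, at 2712 to 3091 in Het and 2328 to 2855 in KO, with a change of -0.20 ± 0.14. Cplx1 was barely detected, at 39.7, 23.8, 25.7 and 32.4 deposited counts in Het and 20.6, 3.88, 27.6 and 29.2 in KO. The value of KO 2 rested on 3 reads, and the deposited change of -0.83 ± 0.42 did not pass (adjusted p = 0.739).

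Cadps encodes CAPS1, a priming factor of dense-core granules, and Cadps2 its relative CAPS2. Cadps was 1530 to 1958 in Het and 1107, 1763, 1224 and 1352 in KO on the expressed-gene scale, with KO 2 alone in the Het range and a change of -0.41 ± 0.16 (adjusted p = 0.120). Cadps2 had deposited counts of 161, 199, 217 and 147 in Het and 419.5, 362, 110 and 123 in KO, and its change on the expressed-gene scale was 0.01 ± 0.13. Unc13a, encoding the priming factor MUNC13-1, changed by -0.40 ± 0.20 on that scale (adjusted p = 0.202), and Rims2, which tethers granules near calcium channels, by -0.01 ± 0.12.

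Rph3al encodes NOC2, an effector of RAB3 and RAB27. It had deposited counts of 1065, 1166, 1264 and 741 in Het and 1787, 2243, 703 and 962 in KO, and a change of 0.06 ± 0.14 on the expressed-gene scale, where its groups overlapped. Exph5, encoding the RAB27 effector SLAC2-B, changed by 0.04 ± 0.20 there, with a wide spread among KO libraries from 832 in KO 3 to 1736 in KO 4. Doc2b, a calcium sensor of fusion, was low at 57.6 to 88.3 deposited counts in Het and 38.6 to 111 in KO.

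On the expressed-gene scale the 2 groups did not overlap for 1 member higher in KO (Napb) and 4 lower (Nsf, Syt7, Rab3b and Rab3d) of 29, where 11.7% of all genes were higher and 10.3% lower without overlap. For the members that missed the threshold this is a description. The number of lower members moved with KO 2 and KO 3. Without KO 2, 1 was called higher and 7 lower, with backgrounds of 9.70% and 8.77%; besides Rab3d (-0.88) the lower ones were Rab3b (-0.89), Rab27a (-0.61), Syt7 (-0.60), Snap25 (-0.55), Cadps (-0.53) and Nsf (-0.35), at adjusted p of 0.005 for Rab3d and 0.016 to 0.044 for the others. Without KO 3, 1 was called higher and 3 lower (Rab3d, Rab3b and Nsf), with backgrounds of 8.92% and 7.38%. On the deposited scale the 2 KO pairs, compared apart, differed in direction: against KO 1 and KO 2 alone, 28 of 33 members were called higher and 1 lower (Cplx1), with a median of 0.91 and backgrounds of 47.4% and 15.4%. Against KO 3 and KO 4 alone, 0 were called higher and 8 lower (Snap25, Stx3, Syt7, Rab3b, Rab3d, Rab27a, Unc13a and Cadps), with a median of -0.62 and backgrounds of 1.22% and 7.03%. With only the libraries that held reads of both sexes (Het 2 to 4, KO 1 and KO 2), 20 were called higher and 1 lower, with backgrounds of 42.3% and 10.2%.

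The makeup of the machinery can be read within a library, without any scaling between libraries, as the share of each member in the summed level of the 33. Napb made up 0.470%, 0.489%, 0.490% and 0.435% in Het 1 to 4 and 1.38%, 0.778%, 0.964% and 1.04% in KO 1 to 4. Rab3d made up 4.95%, 4.81%, 4.60% and 4.00% in Het and 2.83%, 3.28%, 3.47% and 2.65% in KO. Both genes had groups that did not overlap. So did Vamp3, at 0.935% to 1.09% in Het and 1.13% to 1.82% in KO, and Vamp8, at 0.522% to 0.614% in Het and 0.657% to 1.29% in KO, with the highest share of each in KO 3. These were 3 members higher and 1 lower of 33, where 8.39% of all genes were higher and 1.29% lower without overlap. In the limma fit scaled by that sum, Napb (1.11 ± 0.18, adjusted p = 0.008) and Rab3d (-0.59 ± 0.14, adjusted p = 0.044) were called and no other member was, with backgrounds of 2.23% higher and 0.144% lower. Vamp3 and Vamp8 had adjusted p of 0.269 and 0.274 in that fit. This scale uses the members themselves, so a rise of 1 lowers the share of the rest.

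**Figure D4:**
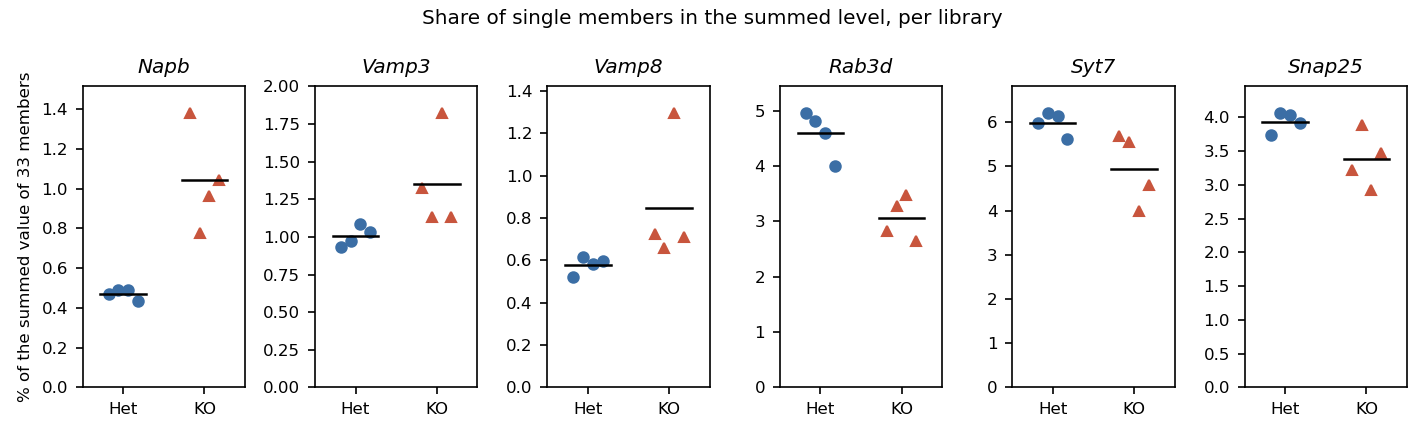
Share of 6 members in the summed normalized count of the 33 members, in percent (y axis, starting at 0), with 1 point per library (circles Het, triangles KO) and the mean as a bar. Napb, Vamp3 and Vamp8 lie higher and Rab3d lower in all KO libraries than in any Het library, while Syt7 and Snap25 overlap.

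Ratios between relatives also need no scaling, and 14 pairs of members were compared by a two-sided exact permutation test over the 8 libraries, for which 70 arrangements allow no p below 0.0286. Napb relative to Napa had log2 ratios of -3.13, -2.96, -2.89 and -2.96 in Het and -1.52, -2.24, -2.39 and -1.82 in KO. The groups did not overlap, and the ratio was 1.99-fold higher in KO (0.126 against 0.251 on the linear scale; exact p = 0.0286, adjusted over the pairs 0.16). Rab3a relative to Rab3d had -2.36, -2.06, -2.15 and -1.85 in Het and -1.63, -1.56, -1.32 and -1.08 in KO, again apart, and was 1.63-fold higher (exact p = 0.0286, adjusted 0.16). None of the 14 pairs passed after adjustment, which would have needed most pairs to reach the smallest possible p. In a limma fit of the same log2 ratios these 2 pairs were called and the others were not (adjusted p = 0.015 for Napb/Napa and 0.034 for Rab3a/Rab3d).

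The next pairs had 1 or more KO libraries within the Het range. Syt7 relative to Syt4 differed by -0.58 (exact p = 0.0571), Snap25 relative to Snap23 by -0.36 and relative to Snap29 by -0.39 (exact p = 0.0571 each), all with an adjusted p of 0.16. Rab3b relative to Rab3c differed by -0.97 (exact p = 0.0857), with 3 KO libraries at 0.54 to 0.78 and KO 2 at 2.20, against 1.53 to 2.57 in Het. The exact p of the other pairs were 0.114 or more, from Vamp2 relative to Vamp8 and Cadps relative to Cadps2 to Syt11 relative to Syt4 at 0.971.

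**Figure D5:**
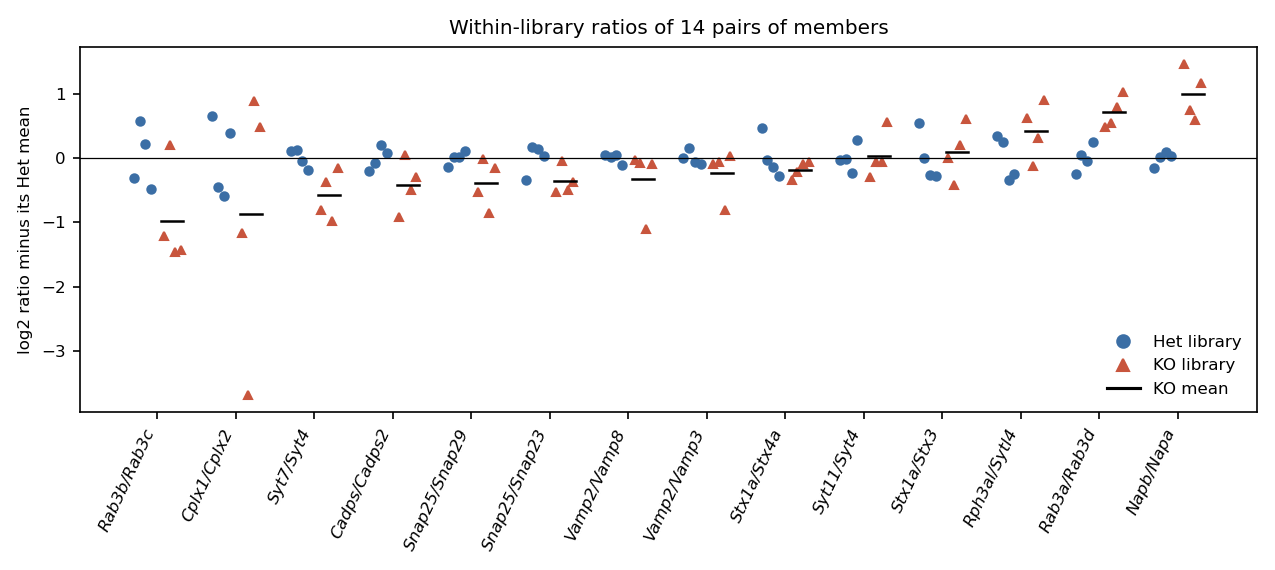
log2 ratio of 14 pairs of members in each library, minus the pair's Het mean (y axis), ordered by the KO mean (x axis); circles are Het, triangles KO and bars the KO mean. Napb/Napa (1.00) and Rab3a/Rab3d (0.71) are the pairs whose groups do not overlap; the lowest point is Cplx1/Cplx2 in KO 2.

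Of 90 other exocytosis genes listed (Munc18 proteins, further syntaxins, VAMPs, synaptotagmins, RABs, active zone proteins and the exocyst), 89 were in the table. On the deposited scale 85 were tested and 0 were called higher and 0 lower. Without adjustment 0 higher and 2 lower had p under 0.05 in that limma fit, and the share of all genes under that p was not counted. On the expressed-gene scale 54 were tested, with 1 called higher and 2 lower, where the background was 6.03% of genes higher and 4.24% lower. Vapa, a membrane contact protein that binds VAMPs, was called higher (0.43 ± 0.11, adjusted p = 0.034), and Rims3, a short RIM protein (-0.60 ± 0.17), and Pip5k1c, a kinase that makes the lipid on which fusion sites assemble (-0.47 ± 0.13), were called lower at adjusted p of 0.045 each. Vapa was 459, 568, 637 and 403 deposited counts in Het and 1467, 1246, 480 and 489 in KO. With the same factors and all genes of a mean of at least 10, 0 of 85 were called, and on the expressed-gene scale all 3 calls were lost when any 1 of Het 1 to 4, KO 1 or KO 4 was left out, at changes of 0.41 to 0.44 for Vapa, -0.66 to -0.54 for Rims3 and -0.54 to -0.39 for Pip5k1c.

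Strand and overlap limit some members. The library kit marks strand, and whether the counting used it is not given in the sources used here. Exons of 8 members overlap a gene on the other strand (Syt4, Syt7, Rab3a, Snap29, Unc13a, Stx4a, Rab3b and Doc2b), and those of Rab27a overlap Gm27186 on its own strand, so reads of these partners may be included. Napb and Rab3d have no such overlap in the annotation.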

How the data were processed

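RNA of YFP-positive beta cells was sequenced in 8 libraries, 4 Het and 4 KO, grouped and numbered by their titles. Per the labels' protocols, libraries were made with the SMARTer pico total RNA kit, version 3. Without giving roles, the submitters' processing notes list STAR 2.7.3a, HTSeq, UMI-tools, FastQC 0.11.8 and DESeq2 1.28.1, with the build mm10. The deposited signal values are gene counts that the authors divided by 1 size factor per library. In each library 100% of values were whole multiples of the smallest step within 0.001 of a step, and the recovered size factors equalled those of DESeq2 on these reads (ratio 1).

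Genes averaging at least 10 were tested with limma 3.58.1 in R 4.3.3, on log2(value + 1), with genotype as the only term, trend and robust eBayes, and Benjamini-Hochberg adjustment over 21498 genes. Under this scaling limma put all genes on 1 spread per level. The fit on the expressed-gene scale (TMM, mean of 200 or more), the quasi-likelihood test of edgeR 4.0.16 and DESeq2 1.42.0 on the recovered reads were alternatives. Pairs of members were compared by exact permutation in Python 3.11.15 with numpy 2.4.6. No 2 replicates were alike within counting noise (chi-square over degrees of freedom of 3.15 or more), so none was merged. The members, lists and pairs were chosen with earlier results of these data known. Values per library are given for the 2 members of highest level per kb and the 2 of smallest p in each role, those called, and those of a ratio with exact p under 0.05 (20 members); values of others were chosen after they were seen. Scripts were tested on simulated data. Coordinates and exon lengths are from GENCODE M21 (mm10), counted from base 1. Alternatives chosen after seeing the data were the TMM factors applied to all tested genes, scaling by the summed members, the expressed-gene scale with KO 1 and KO 2 or KO 3 and KO 4 alone or with the replicate block, and its factors on all tested genes with KO 3 and KO 4 alone or 1 library left out. The summed level of the Schwann cell and neuron marker list is not reported here.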

Additional observations from a re-analysis of the deposited data

Results flagged for a closer look

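Of 68 groups of 4 libraries examined (20 members on the deposited scale and 14 ratios, in Het and in KO), 4 had a library far from the other 3, its gap to the nearest being above Dixon's 95% critical part of the group's range; chance alone gives about 1 in 20. In KO 3 the log2 ratio of Vamp2 to Vamp3 was 0.88 and that of Vamp2 to Vamp8 was 1.37, where the other KO libraries held 1.59 to 1.72 and 2.39 to 2.46. In Het 4 the ratio of Vamp2 to Vamp8 was 2.38, against 2.50 to 2.52 in the other Het libraries. In KO 2 the ratio of Rab3b to Rab3c was 2.20, against 0.54 to 0.78 in the other KO libraries.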

How the results depend on the processing

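The count of called members depended on the scaling. Pseudocounts of 0.5 and 8, no filter, a mean of at least 50, TMM factors from all tested genes, array weights, eBayes with neither trend nor robust settings, edgeR, DESeq2 and leaving out any 1 library on the deposited scale gave 0 higher and 0 lower. Quantile scaling, the expressed-gene scale with limma or edgeR, its factors on all tested genes, and scaling by the summed members each gave 1 higher (Napb) and 1 lower (Rab3d). With KO 1 and KO 2 only the deposited scale gave 28 and 1 (median 0.91), with KO 3 and KO 4 only 0 and 8 (median -0.62), and with the libraries of both sexes only 20 and 1 (median 0.89). Over all genes these comparisons called 47.4% higher and 15.4% lower, 1.22% and 7.03%, and 42.3% and 10.2%, in that order. The expressed-gene scale gave 1 and 1 with KO 1 and KO 2, and 0 and 2 with KO 3 and KO 4. With the expressed-gene factors and the filter of 10, KO 3 and KO 4 gave 1 and 2. Leaving out 1 library gave 0 to 1 higher and 0 to 7 lower over both scales and filters: without KO 2 the lower members on the expressed-gene scale were 7 (Snap25, Nsf, Syt7, Rab3b, Rab3d, Rab27a and Cadps), without KO 3 they were 3 (Nsf, Rab3b and Rab3d), and without Het 1, Het 2 or KO 1 they were 0; with the filter of 10 they were 4 without KO 2 (Snap25, Syt7, Rab3b and Rab3d). Of the other pathway genes, 1 higher and 2 lower were called on the expressed-gene scale (6.03% and 4.24% of all genes). There edgeR gave 1 and 1 (6.15% and 3.54%). Quantile scaling gave 0 and 1 (1.49% and 0.642%), and the summed members 1 and 0 (2.23% and 0.144%). On the deposited scale KO 1 and KO 2 gave 57 and 9 of 86 (47.4% and 15.4% of all genes). On that scale KO 3 and KO 4 gave 0 and 14 of 85 (1.22% and 7.03%), and both sexes only 50 and 5 of 86 (42.3% and 10.2%). The expressed-gene scale with KO 3 and KO 4 gave 1 and 1 (5.42% and 5.37%), or 1 and 2 with the filter of 10 (3.09% and 1.50%). Leaving out 1 library gave 0 to 3 higher and 0 to 4 lower. The cause of these differences was not tested. With the replicate number as a block on the deposited scale, 0 members and 0 other pathway genes were called, and 182 genes higher and 5 lower over the table. The block on the expressed-gene scale called 1 member higher (Napb) and 2 lower (Rab3b and Rab3d), 2 and 3 other pathway genes, and 498 and 441 of 6697 genes. Same-numbered libraries did not deviate together throughout (r = 0.22, -0.05, 0.13 and 0.28 for numbers 1 to 4). Het 2, Het 3 and KO 2 correlated best with another number, and Het 1, Het 4, KO 1, KO 3 and KO 4 with their own. These values do not settle whether the numbers are pairs, and the labels do not say, so the main fits left them unpaired. For the 14 ratios, the exact test called 0, limma on the log2 ratios 2 (Napb/Napa and Rab3a/Rab3d), and limma with the block 3, Rab3b/Rab3c being the third.

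The sign of many changes moved with the scaling and with the libraries used, among them Rab3d, Rims3 and Pip5k1c, which were called lower on the expressed-gene scale. With TMM factors from all tested genes Vamp2 was -0.011, Napa -0.059, Syt13 -0.15, Cplx2 -0.18 and Rab3a -0.054, all positive on the deposited scale. On the expressed-gene scale, with or without the block, and with its factors on all genes, they were -0.033, -0.081, -0.17, -0.20 and -0.076, and with edgeR there -0.033, -0.070, -0.17, -0.19 and -0.068. Array weights gave -0.037, -0.11, -0.16, -0.17 and -0.024, and Cadps2 -0.025. Quantile scaling gave Napa -0.026, Syt13 -0.038, Cplx2 -0.098, Cadps2 -0.098 and Rab3a -0.12, edgeR gave Napa -0.055, Syt13 -0.13, Cplx2 -0.15 and Rab3a -0.058, and the summed members gave Cplx2 -0.00091. DESeq2 turned Snap25 (0.084), Nsf (0.13), Sytl4 (0.12) and Rab27a (0.015) positive. On the deposited scale KO 3 and KO 4 only gave Vamp2 -0.66, Vamp8 -0.062, Vamp3 -0.27, Napa -0.58, Syt13 -0.74, Syt11 -0.46, Syt5 -0.58, Cplx2 -0.75, Rph3al -0.34, Cadps2 -0.62, Rab3a -0.48 and Vapa -0.070. KO 1 and KO 2 only, and in brackets both sexes only, gave Snap25 0.73 (0.64), Nsf 0.74 (0.68), Sytl4 0.70 (0.59), Rab27a 0.58 (0.53), Rab3d 0.30 (0.27), Rab3b 0.29 (0.22), Rims3 0.60 (0.58) and Pip5k1c 0.61 (0.60). The expressed-gene scale gave Napa -0.14, Syt13 -0.15, Cplx2 -0.20, Rph3al -0.095 and Rab3a -0.23 with KO 1 and KO 2, and Vamp2 -0.062, Syt13 -0.14 and Cplx2 -0.15 with KO 3 and KO 4, where the filter of 10 also gave Cadps2 -0.019 and Cplx1 0.51. Leaving out 1 library, over both scales and filters, gave -0.11 to 0.55 for Vamp2, -0.59 to 0.19 for Snap25, -0.19 to 0.46 for Napa, -0.40 to 0.23 for Nsf, -0.25 to 0.37 for Syt13, -0.57 to 0.17 for Sytl4, -0.037 to 0.59 for Syt5, -0.65 to 0.11 for Rab27a, -0.28 to 0.39 for Cplx2, -0.028 to 0.59 for Rph3al, -0.072 to 0.57 for Cadps2, -0.16 to 0.38 for Rab3a, -0.042 to 0.67 for Rab3c and -0.61 to 0.096 for Pip5k1c. Among ratios, KO 1 and KO 2 only gave Stx1a/Stx3 -0.21 and Syt11/Syt4 -0.18, KO 3 and KO 4 only gave Cplx1/Cplx2 0.68, and leaving out 1 library gave -0.073 to 0.28, -0.14 to 0.15 and -1.46 to 0.067 for these 3.

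Counting error is relatively largest for the members with fewest reads, Cplx1 with 3 to 49 reads per library and Rab3c, Stx1a and Doc2b with at most 167; how far depth limits their tests was not tested. With 4 libraries a group and unequal KO libraries, a missed threshold does not show that a member is alike in both groups.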
